A study of Cavia porcellus with 11 samples.

Results

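The genes described here encode the machinery with which the sensory hair cells of the cochlea turn sound-driven movement into an electrical current. The 10 genes Tmc1, Tmie, Lhfpl5, Cib2, Cdh23, Pcdh15, Ush1c, Ush1g, Whrn and Loxhd1 were taken by symbol from a table of 21481 genes, and all 10 were found. Guinea pig (Cavia porcellus) cochleae had been profiled by RNA-seq in 3 groups. The combined group held 3 libraries from cochleae exposed to STB together with cisplatin, a platinum chemotherapy drug that is toxic to the inner ear. The labels do not spell STB out, and the series title names Schisantherin B. The cisplatin group held 4 libraries without STB, and the control group 4 libraries from untreated cochleae. None of the 11 libraries came from cochleae given STB without cisplatin. The sources used here do not state strain, sex, age, dose, time after treatment or how many animals a library stands for. Whether replicates are different animals is also not stated, so each p-value refers to library-to-library spread that may be technical.

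A hair cell carries a bundle of stereocilia, actin-filled projections in rows of graded height. A fine filament, the tip link, runs from the tip of each shorter stereocilium to the side of its taller neighbour, and deflection of the bundle pulls on it and opens an ion channel at its lower end. In mice, the upper part of the tip link is made of cadherin 23 and the lower part of protocadherin 15. The channel complex holds TMC1, which lines the pore, with TMIE, LHFPL5 and CIB2, while harmonin and SANS anchor the upper end. Inherited loss of function of these genes causes deafness in humans, and outer hair cells are known as a main target of cisplatin in the cochlea.

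The libraries held 15183801 to 17967896 counts in the combined group, 15987935 to 17250430 after cisplatin and 14338894 to 18508296 in control. Hair cell genes outside the bundle were present in every library. Oncomodulin (Ocm), a calcium buffer of outer hair cells, ran from 343 to 1912 CPM (a count scaled to the library's depth with factors from the trimmed mean of M-values, TMM), and otoferlin (Otof), needed for vesicle release by inner hair cells, from 159 to 415 CPM. Of 18 such markers, Atoh1 alone was at 0 in every library. Libraries differed in hair cell genes within each group. Pou4f3, a transcription factor gene of hair cells, was at 71.4, 25.2 and 80.8 CPM in combined replicates 1 to 3. It was at 32.4, 71.7, 51.2 and 68.3 CPM in cisplatin replicates 1 to 4, and at 45.0, 65.1, 59.0 and 18.9 CPM in control replicates 1 to 4. Combined replicate 2, cisplatin replicate 1 and control replicate 4 were thus each the lowest of their group. In these whole-tissue libraries, fewer hair cells and less RNA per hair cell cannot be told apart.

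A low-count filter left 15384 genes and 9 of the 10 members for testing, Ush1g being the exception. None of these 9 passed edgeR's quasi-likelihood test in any of the 3 comparisons, at an adjusted p under 0.05 after Benjamini-Hochberg adjustment over every gene tested. With the combined treatment set against cisplatin 0 of the 9 were called, where 0.0195% of all genes were. With cisplatin set against control 0 of 9 were called, and 0% of all genes. For the combined treatment against control 0 of 9 were called, again with 0% of all genes. At an unadjusted p under 0.05 these comparisons gave 1 member (9.03% of all genes), 0 members (9.71%) and 0 members (1.07%). DESeq2 called 0 of the 9 in each comparison as well.

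Levels per length spanned more than 2 orders of magnitude among the members. In the deposited FPKM values, Cib2 stood at 45.1 ± 12.8 FPKM and Ush1c at 44.4 ± 13.04 FPKM in control (SD, n = 4), both above 92.6% of all genes. Their ranges overlapped, and the range of Ush1c did not reach that of Tmc1, which came next at 10.04 ± 2.73 FPKM. Lhfpl5 followed at 5.92 ± 2.38, Tmie at 4.54 ± 1.68, Whrn at 4.15 ± 0.62, Loxhd1 at 3.83 ± 1.26 and Cdh23 at 2.66 ± 0.81 FPKM. Each of these overlapped its neighbour in range, so the order from Tmc1 to Cdh23 was not resolved step by step. Pcdh15 at 0.58 ± 0.10 FPKM lay apart from Cdh23, and Ush1g at 0.14 ± 0.08 FPKM apart from Pcdh15. The table gives 1 exonic length for a gene whichever transcript variants a tissue uses, from 1245 bases for Cib2 to 21470 bases for Cdh23.

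**Figure D1:**
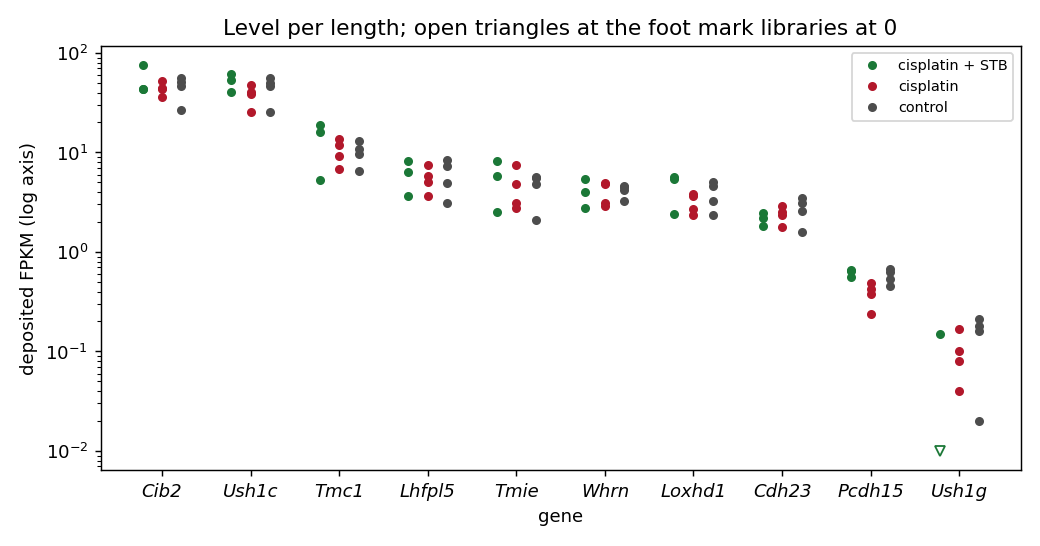
Deposited FPKM (fragment count scaled for gene length and library depth, log axis) of each gene in every library, ordered by the control mean, with the combined group left, cisplatin in the middle and control right of each gene. Cib2 and Ush1c lie highest and Pcdh15 and Ush1g lowest, and the triangle stands for the 2 combined libraries in which Ush1g had no count.

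For each of the 4 genes of the channel complex the libraries of the 3 groups overlapped. Tmc1, the gene of the pore-forming subunit, lies on the minus strand of its scaffold at positions 71886762 to 72131076, in the coordinates of the deposited table. It was at 59.8, 16.1 and 52.2 CPM in combined replicates 1 to 3, at 22.04, 40.0, 30.8 and 46.0 CPM in cisplatin replicates 1 to 4, and at 31.2, 41.0, 34.5 and 21.3 CPM in control replicates 1 to 4. The lowest and the highest of all 11 libraries both belonged to the combined group, and all groups overlapped. For Tmc1 the log2 fold change was 0.30 (SE 0.40, adjusted p = 0.872 by edgeR) for the combined treatment against cisplatin, and 0.12 (SE 0.37, adjusted p = 0.926) for cisplatin against control. The 95% intervals of these log2 fold changes were -0.58 to 1.17 and -0.70 to 0.93.

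Tmie encodes a small membrane protein that the channel needs for its current in mice, and lies on the plus strand at 63988645 to 63995739. It was at 13.6, 4.02 and 9.76 CPM in the combined libraries, 4.68, 13.3, 5.34 and 8.48 CPM after cisplatin and 7.92, 9.12, 9.36 and 3.55 CPM in control. The lowest library of each group was the same for Tmie as for Tmc1. For Tmie the log2 fold change was 0.20 (SE 0.47, adjusted p = 0.930 by edgeR) for the combined treatment against cisplatin. Lhfpl5, which encodes a tetraspan protein that joins protocadherin 15 to the channel, lies on the minus strand at 45487360 to 45498784. It was at 44.0, 18.8 and 34.3 CPM in the combined libraries, 19.7, 42.1, 28.3 and 33.4 CPM after cisplatin and 26.2, 43.7, 39.0 and 16.9 CPM in control. Its 3 group means were the closest among the channel genes, at 32.3 ± 12.7 CPM (SD, n = 3), 30.9 ± 9.37 CPM (n = 4) and 31.4 ± 12.2 CPM (n = 4) for combined, cisplatin and control. Between groups the log2 fold change was 0.07 (SE 0.36, adjusted p = 0.974 by edgeR) for the combined treatment against cisplatin and -0.03 (SE 0.34, adjusted p = 0.986) for cisplatin against control.

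Cib2 encodes a calcium-binding protein that binds TMC1 and is also expressed outside the ear, and lies on the plus strand at 7240083 to 7254199. It was at 91.9, 51.5 and 55.0 CPM in the combined libraries, 45.2, 69.1, 55.4 and 57.9 CPM after cisplatin and 68.9, 62.0, 56.2 and 33.9 CPM in control. Combined replicate 1 stood above every other library, and the groups overlapped. Its log2 fold change was 0.22 (SE 0.25, adjusted p = 0.848 by edgeR) for the combined treatment against cisplatin. Cib2 overlaps Sh2d7 on the opposite strand, which had 118 counts over the 11 libraries against 10464 for Cib2. The sources used here do not say whether reads were counted by strand.

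**Figure D2:**
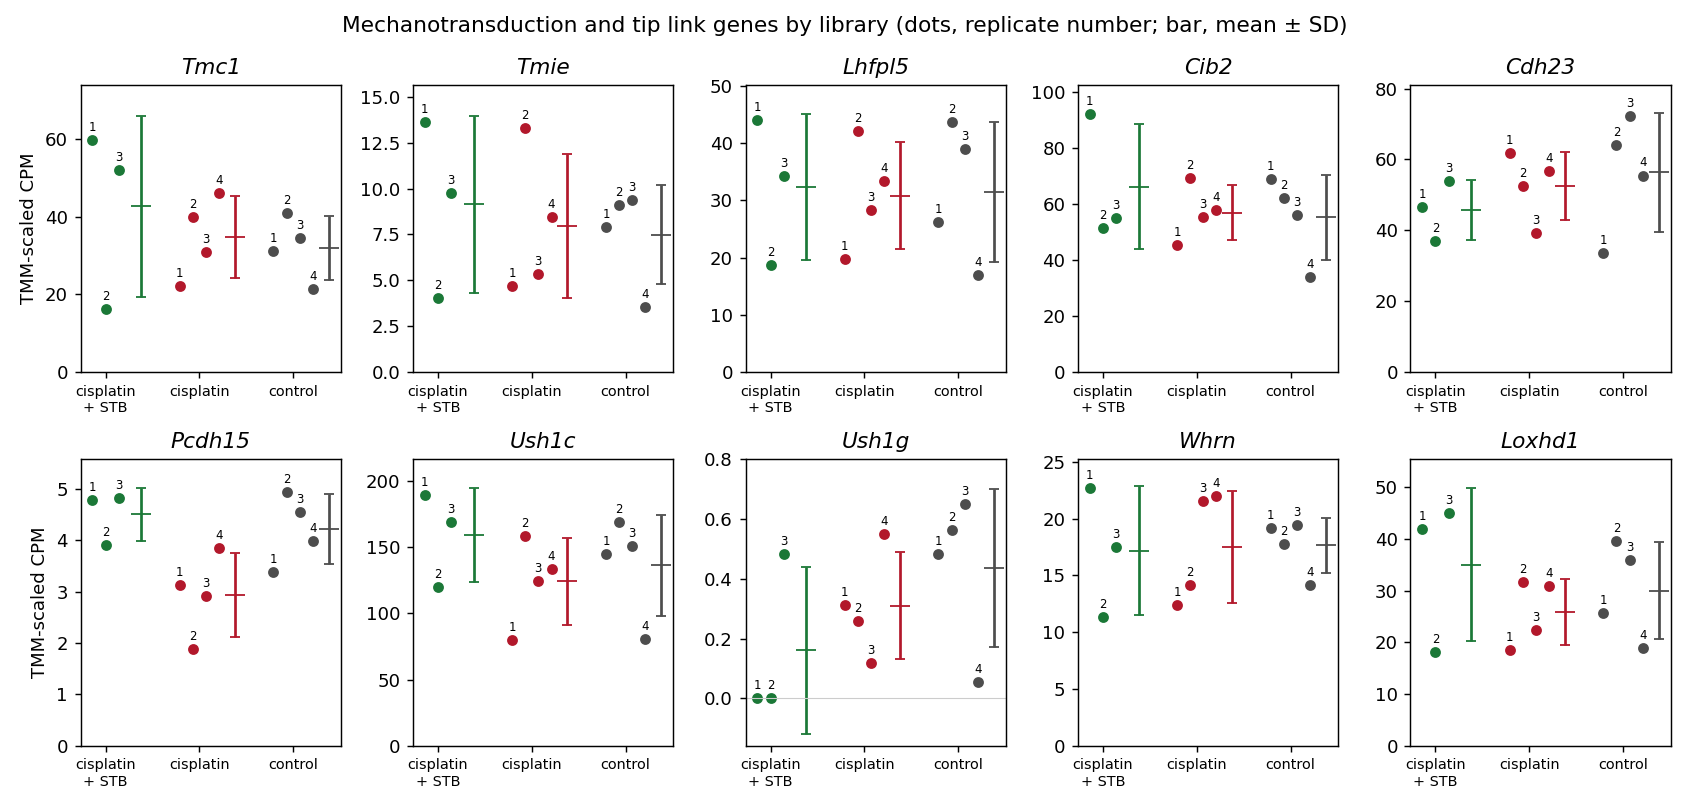
TMM-scaled CPM of each gene by library (dots with replicate numbers) with the group mean and SD, the combined group left, cisplatin in the middle and control right. Combined replicate 2, cisplatin replicate 1 and control replicate 4 lie at or near the foot of their groups for Tmc1, Tmie, Lhfpl5, Ush1c and Loxhd1, and Pcdh15 shows combined libraries above all cisplatin libraries.

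Of the 2 tip link cadherins, Pcdh15 had its lowest mean after cisplatin and Cdh23 in the combined group. Pcdh15, which forms the lower part of the link, on the minus strand at 14389790 to 15862498, was at 4.78, 3.91 and 4.82 CPM in combined replicates 1 to 3. It was at 3.12, 1.88, 2.91 and 3.84 CPM in cisplatin replicates 1 to 4 and at 3.37, 4.93, 4.55 and 3.99 CPM in control replicates 1 to 4. Every combined library lay above every cisplatin library, the nearest being combined replicate 2 at 3.91 and cisplatin replicate 4 at 3.84 CPM. Pcdh15 was the 1 member of 9 whose combined and cisplatin libraries did not overlap, and 7.54% of all genes did the same in either direction (3.81% with the combined group higher). For cisplatin against control and for the combined treatment against control 0 of 9 members were free of overlap, where 6.06% and 2.41% of all genes were. The log2 fold change was 0.61 (SE 0.28), with an unadjusted p of 0.0480 and an edgeR adjusted p of 0.551. The unadjusted p of Pcdh15 depended on the fit. It was 0.0466 by DESeq2 and 0.0365 in edgeR with upper-quartile factors. In edgeR it was 0.0587 without the filter and 0.0525 with DESeq2 size factors. With the replicate block it was 0.0587, and with only the groups compared 0.0844, both in edgeR. For the combined treatment against cisplatin, leaving out combined replicate 2 gave 3 of 9 members with an unadjusted p under 0.05. In that fit 1059 of 15520 genes had one, and the smallest adjusted p of a member was 0.699 by edgeR. Leaving out combined replicate 1 or 3 gave 0 members, where 801 of 15553 and 1931 of 15556 genes had one. For cisplatin against control the log2 fold change of Pcdh15 was -0.52 (SE 0.26, adjusted p = 0.536 by edgeR). For the combined treatment against control it was 0.10 (SE 0.28, adjusted p = 0.99994 by edgeR). The values 0.61 and -0.52 share the cisplatin libraries. The counts behind them were low, from 74 to 80 in the combined group, 29 to 63 after cisplatin and 49 to 79 in control. Without cisplatin replicate 2, which held the lowest value, the log2 fold changes were 0.44 for the combined treatment against cisplatin and -0.35 for cisplatin against control.

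Cdh23, the gene of the upper part of the link, lies on the plus strand of the scaffold that also carries Pcdh15 and Lhfpl5, at 29550433 to 29925103. It was at 46.5, 37.0 and 53.9 CPM in the combined libraries, 61.7, 52.5, 39.4 and 56.7 CPM after cisplatin and 33.5, 64.1, 72.3 and 55.5 CPM in control. Control held both the lowest library and the highest. Its log2 fold change was -0.20 (SE 0.24, adjusted p = 0.853 by edgeR) for the combined treatment against cisplatin and -0.10 (SE 0.22, adjusted p = 0.887) for cisplatin against control. For the combined treatment against control it was -0.30 (SE 0.24), the lowest value among the members in that comparison. Within the span of Cdh23 the opposite strand carries Vsir and CUNH10orf105, with 2554 counts in sum over the 11 libraries against 9347 for Cdh23.

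Among the scaffold genes, Ush1c was the most abundant and followed the channel genes. It encodes harmonin, a scaffold at the upper end of the tip link, and lies on the plus strand at 96993740 to 97038808. It was at 188.9, 119.6 and 169.0 CPM in the combined libraries, 80.0, 157.9, 124.7 and 133.5 CPM after cisplatin and 144.5, 168.5, 150.8 and 80.8 CPM in control. The lowest libraries were again cisplatin replicate 1, control replicate 4 and, within its group, combined replicate 2. For Ush1c the log2 fold change was 0.36 (SE 0.27, adjusted p = 0.738 by edgeR) for the combined treatment against cisplatin and -0.13 (SE 0.25, adjusted p = 0.863) for cisplatin against control. Ush1g, on the plus strand at 24028309 to 24034658, encodes SANS, the partner of harmonin. It had 0, 0 and 8 counts in the combined libraries, 5, 4, 2 and 9 counts after cisplatin and 7, 9, 10 and 1 counts in control. A count of 0 allows up to 3 counts, or 0.194 and 0.159 CPM in combined replicates 1 and 2, which is no lower than the value measured in cisplatin replicate 3 or control replicate 4. Fitted without the filter, its log2 fold change was -0.94 for the combined treatment against cisplatin (edgeR adjusted p = 0.841), and a difference was not detectable at this depth.

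Whrn encodes whirlin, a scaffold found in mice at stereocilia tips and at links near the bundle's base, and lies on the plus strand at 173440920 to 173531119 of the scaffold that carries Tmc1. It was at 22.7, 11.4 and 17.5 CPM in the combined libraries, 12.4, 14.2, 21.5 and 21.96 CPM after cisplatin and 19.2, 17.7, 19.4 and 14.2 CPM in control. Its group means were 17.2 ± 5.66 CPM (SD, n = 3), 17.5 ± 4.96 CPM (n = 4) and 17.6 ± 2.44 CPM (n = 4), and its log2 fold changes lay between -0.04 and -0.01 (SE 0.24 to 0.26). Loxhd1 encodes a stereociliary protein made of PLAT domains that hair cell transduction requires in mice, and lies on the plus strand at 36470535 to 36635768. It was at 42.0, 18.1 and 45.0 CPM in the combined libraries, 18.6, 31.7, 22.3 and 30.9 CPM after cisplatin and 25.7, 39.5, 35.9 and 18.9 CPM in control. Combined replicate 2 was the lowest library of all, and the groups overlapped. For Loxhd1 the log2 fold change was 0.44 (SE 0.33, adjusted p = 0.746 by edgeR) for the combined treatment against cisplatin and -0.21 (SE 0.31, adjusted p = 0.818) for cisplatin against control.

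Over the 9 members tested, the median log2 fold change was 0.22 for the combined treatment against cisplatin, with 7 positive and 2 negative, where the median of all genes was 0.00 and 50.8% of them were positive. It was -0.03 for cisplatin against control, with 3 positive and 6 negative, where the median of all genes was -0.01 and 49.1% were positive. It was 0.22 for the combined treatment against control, with 7 positive and 2 negative, where the median of all genes was 0.00 and 49.1% were positive. These values turned on single libraries. Without combined replicate 1 the medians against cisplatin and control were -0.10 and -0.05, and without combined replicate 2 they were 0.53 and 0.39. Between cisplatin and control the median was 0.13 without cisplatin replicate 1 and -0.21 without cisplatin replicate 2.

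**Figure D3:**
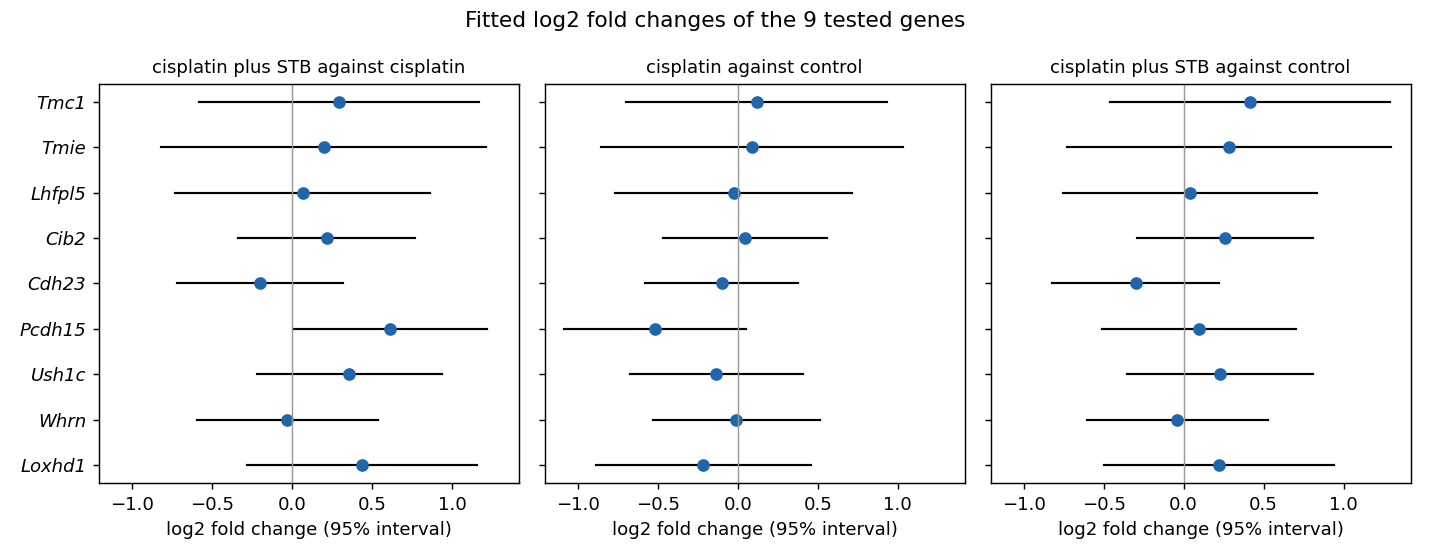
Fitted log2 fold change (dot) with its 95% interval (line) for the 9 tested genes, combined against cisplatin left, cisplatin against control in the middle and combined against control right. The intervals take in 0 for all genes and comparisons but Pcdh15 in the left panel, whose unadjusted interval starts at 0.01.

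Most members varied together from library to library. Across the 11 libraries Pearson's r between log2 CPM of 2 members was positive for 32 of 36 pairs, with a median of 0.59, where 49.9% of pairs of all tested genes were positive. For 15 of the 36 pairs the adjusted p was under 0.05 (permutation test, two-sided, 100000 permutations, Benjamini-Hochberg over the 36). The lowest r among these 15 was 0.69, a value reached by 3.53% of pairs of all tested genes. Tmie and Lhfpl5 had the highest value, with r of 0.94 and Spearman's rho of 0.93 (permutation p = 5e-05 and 1e-04, adjusted p = 0.00144 and 0.0018), and r was 0.87 without the 2 libraries farthest from the median of Tmie. Tmc1 and Loxhd1 had r of 0.92 and rho of 0.92 (permutation p = 8e-05 and 0.00018, adjusted p = 0.00144 and 0.0018), and r was 0.91 without 2 libraries. Cdh23 and Pcdh15, whose products join to form the tip link, had r of 0.25 and rho of 0.37 (permutation p = 0.475 and 0.260, adjusted p = 0.615 and 0.374), and r was 0.33 without 2 libraries and 0.51 after subtraction of group means. None of the 15 pairs under the threshold held Cdh23 or Pcdh15. For Pcdh15 with Loxhd1 and with Ush1c, however, the low r rested on 2 libraries. Over all 11 libraries r was 0.39 and 0.23, and rho 0.59 and 0.53 (permutation adjusted p of rho 0.122 and 0.163). Without the 2 libraries farthest from the median of Pcdh15, r was 0.79 and 0.71. With Whrn, r of Pcdh15 was 0.30 over all libraries and 0.44 without those 2. The lowest of all pairs was Cib2 with Cdh23, at r of -0.25 and rho of -0.19 (permutation p = 0.466 and 0.576, adjusted p = 0.615 and 0.671).

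**Figure D4:**
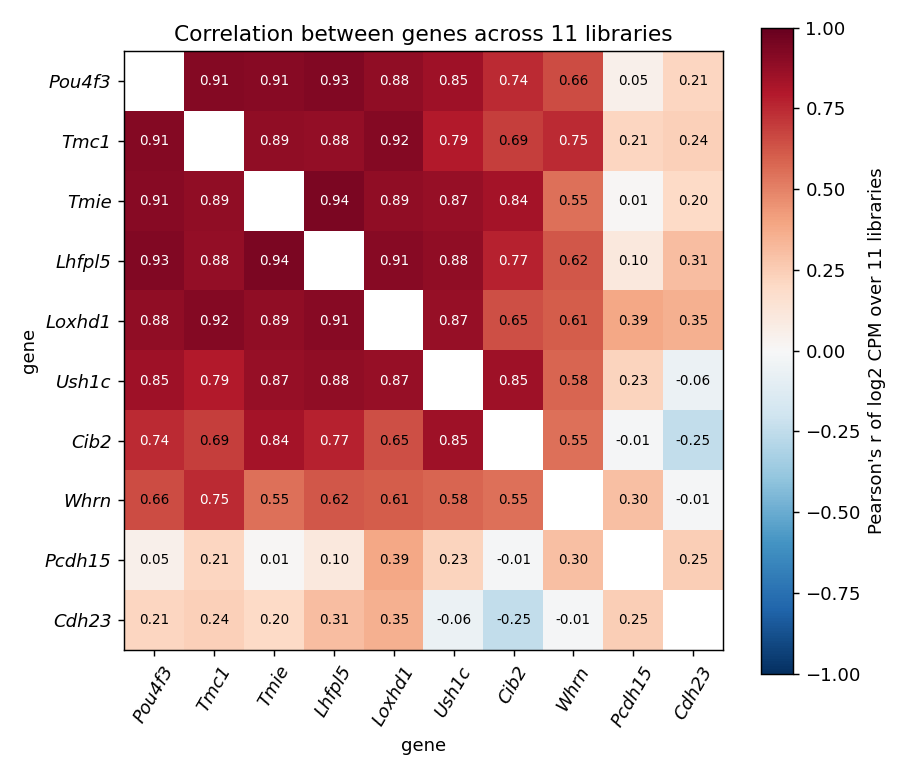
Pearson's r of log2 CPM across the 11 libraries for each pair of genes, with Pou4f3 as the top row and red for positive values. Tmc1, Tmie, Lhfpl5, Loxhd1 and Ush1c form a block of values from 0.79 to 0.94, and the rows of Pcdh15 and Cdh23 hold no value above 0.39.

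The same division appeared against Pou4f3, which is no member and was singled out after values were seen. Of the 9 members, 7 correlated with Pou4f3 at an adjusted p under 0.05 over the family of 9 (Pearson's r, permutation test, two-sided). The lowest r among these 7 was 0.655, a value reached by 5.03% of all tested genes. For Lhfpl5 r was 0.93 and rho 0.83 (permutation p = 1e-04 and 0.0026, adjusted p = 0.000248 and 0.00468), with r of 0.86 without the 2 libraries farthest from the median of Pou4f3. For Tmc1 r was 0.91 and rho 0.91 (permutation p = 9e-05 and 0.00017, adjusted p = 0.000248 and 0.00113), with r of 0.92 without those libraries. Tmie, Loxhd1 and Ush1c had r of 0.91, 0.88 and 0.85 (adjusted p = 0.000248, 0.000248 and 0.00432 by permutation), with rho of 0.92, 0.86 and 0.85 (permutation adjusted p = 0.00113, 0.00345 and 0.00378). Without those 2 libraries their r was 0.81, 0.88 and 0.86. Cib2 and Whrn passed with r of 0.74 and 0.66 (permutation adjusted p = 0.00986 and 0.0378), but not by rho, at 0.63 and 0.47 (adjusted p = 0.0638 and 0.190). Their r was 0.49 and 0.42 without those 2 libraries, so that these relations rested on them. Cdh23 had r of 0.21 and rho of 0.12 with Pou4f3 (permutation p = 0.530 and 0.737), and Pcdh15 had r of 0.05 and rho of 0.22 (permutation p = 0.888 and 0.521). The division also stood within groups. After subtraction of group means r with Pou4f3 was 0.92 for Tmc1, 0.92 for Tmie, 0.95 for Lhfpl5, 0.97 for Loxhd1 and 0.94 for Ush1c. It was 0.75 for Cib2 and 0.70 for Whrn over all 11 libraries, and 0.28 for Cdh23 and 0.20 for Pcdh15.

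Dividing by Pou4f3 narrowed the spread of some members and widened that of others. The SD of log2 CPM over the 11 libraries was 0.58 for Tmc1, 0.66 for Tmie, 0.51 for Lhfpl5 and 0.49 for Loxhd1. The SD of their log2 ratio to Pou4f3 was 0.28, 0.29, 0.29 and 0.34. For Ush1c it was 0.41 both before and after. It widened for Cib2, at 0.37 before division and 0.48 after, and for Whrn, at 0.34 and 0.53. For Cdh23 it was 0.35 before division and 0.70 after, and for Pcdh15 0.40 and 0.78. The SD of Pou4f3 itself was 0.69. The SD of each ratio follows from the SD of the member, that of Pou4f3 and their r. It thus restates the correlations above and is no separate observation.

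**Figure D5:**
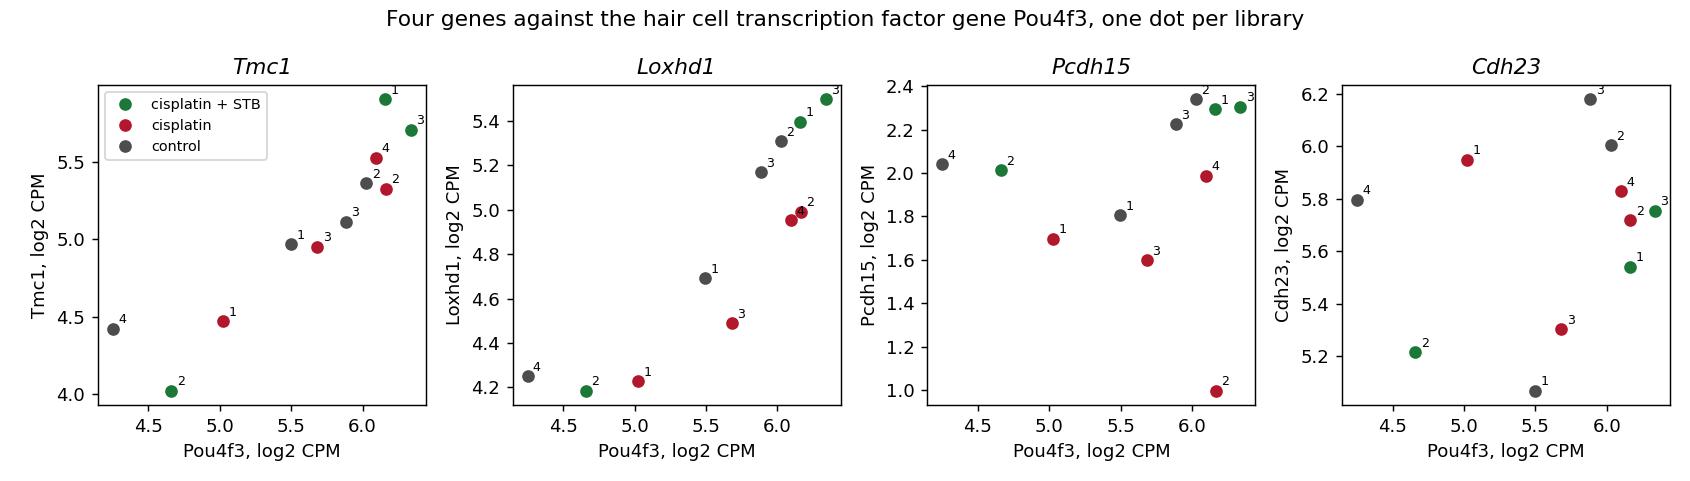
Log2 CPM of Tmc1, Loxhd1, Pcdh15 and Cdh23 against that of Pou4f3, with a dot for each of the 11 libraries marked by group colour and replicate number. Tmc1 and Loxhd1 climb with Pou4f3 across libraries of all groups, with r of 0.91 and 0.88, and Pcdh15 and Cdh23 scatter with r of 0.05 and 0.21.

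The genes most like the members as a set were sought among 13844 tested genes with a name. Likeness was Pearson's r over the 11 libraries between a gene's log2 CPM and the mean z-score of the 9 members. Among the highest values were those of Tppp at 0.96, Sall1 at 0.95, Tmprss7 at 0.94 and Dscaml1 at 0.94. Sall1 encodes a zinc finger transcription factor. It was at 69.9 ± 25.3 CPM in the combined group (SD, n = 3), 56.3 ± 10.3 CPM after cisplatin and 59.1 ± 12.8 CPM in control (n = 4 each). These genes were picked for a high r, so the values describe the picking. Of the hair cell markers outside the bundle, r with the member score was 0.93 for Gfi1, a hair cell transcription factor, and 0.90 for Pou4f3. It was 0.89 for Chrna9, a subunit of the efferent acetylcholine receptor, and 0.87 for the homeobox gene Lhx3. The transcription factor gene Barhl1, Ocm, Slc26a5, which encodes the outer hair cell motor prestin, and Otof lay between 0.79 and 0.83. Slc17a8, the glutamate transporter of inner hair cells, and Chrna10 stood at 0.67 and 0.66. Myo6, an unconventional myosin, Tmem255b, Calb2, Strip2, Pvalb and Lmod3 ran from 0.44 down to -0.27. Calb2 and Pvalb encode calcium buffers that spiral ganglion neurons express too.

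None of the hair cell markers outside the bundle passed the test. For combined against cisplatin 0 of 17 were called by edgeR (0.0195% of all genes) and 0 had an unadjusted p under 0.05 (9.03%). For cisplatin against control both counts were 0 (0% and 9.71% of all genes), as for combined against control (0% and 1.07%). The median log2 fold change of the 17 was 0.36, -0.14 and 0.16 in these comparisons. Positive values were found for 14 (50.8% of all genes), 6 (49.1%) and 15 (49.1%) of the 17. How far these markers rested on single libraries was not tested. Their summed level ran from 2643 to 3528 CPM in the combined libraries, 1699 to 3178 CPM after cisplatin and 1348 to 4179 CPM in control. Calb2, which neurons share, gave 1127 CPM of this sum in combined replicate 2 and 1671 CPM in control replicate 2. Without Calb2 and Pvalb the sum ran from 1339 to 2819 CPM, 1503 to 2678 CPM and 1176.5 to 2450.1 CPM in the combined, cisplatin and control libraries. Spiral ganglion neuron markers, 12 of 12 in the table, summed to 897 to 3143, 630 to 2181 and 739 to 3733 CPM in the same order of groups. The neuron sum was highest in combined replicate 2, cisplatin replicate 3 and control replicate 2. The median log2 fold change of the 11 neuron markers tested was 0.76 for combined against cisplatin and -0.79 for cisplatin against control. For combined against control it was 0.11. In these comparisons edgeR called 0 neuron markers each, where 0.0195%, 0% and 0% of all genes were called. An unadjusted p under 0.05 was found for 1, 0 and 0 of the 11, where 9.03%, 9.71% and 1.07% of all genes had one. The part of the neuron markers in the members' values was not tested.

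Other genes of transduction and of the stereocilia were read from a list. Of 32 listed, 30 were in the table and 26 were tested, and 0 were called in each comparison (smallest adjusted p 0.467 by edgeR). Between the combined treatment and cisplatin 4 had an unadjusted p under 0.05, all higher, where 4.45% of all genes were higher at that p. The combined and cisplatin libraries of each of these 4 overlapped. Of the 26, 0 were free of overlap in this comparison, where 7.54% of all genes were. Myo3a, a myosin with a kinase domain, was at 7.90 ± 3.66 CPM in the combined group (SD, n = 3) and 4.58 ± 0.77 CPM after cisplatin (n = 4), with a log2 fold change of 0.78 (SE 0.30, adjusted p = 0.467 by edgeR). Adgrv1, the giant receptor of the ankle links, was at 22.7 ± 7.19 and 16.2 ± 0.86 CPM in these groups (log2 fold change 0.49, SE 0.19, adjusted p = 0.479 by edgeR). Pdzd7, a scaffold of the same links, had a log2 fold change of 0.60 (SE 0.26), and Gipc3, a PDZ protein, of 0.76 (SE 0.32), with adjusted p of 0.522 and 0.529 by edgeR. Combined replicate 1 was the highest of its group for Myo3a, Adgrv1 and Gipc3, at 11.9, 30.6 and 70.3 CPM. For Pdzd7 it was combined replicate 2, at 28.1 CPM. How far the genes of this list rested on single libraries was not tested.

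For cisplatin against control 1 of the 26 had an unadjusted p under 0.05, where 5.28% of all genes were lower at that p. It was Pdzd7, at 15.4 ± 2.08 CPM after cisplatin and 22.8 ± 6.64 CPM in control (n = 4 each), with a log2 fold change of -0.56 (SE 0.24, adjusted p = 0.507 by edgeR). Elmod3 followed at -0.47 (SE 0.24), Gipc3 at -0.54 (SE 0.30) and the actin bundler Fscn2 at -0.50 (SE 0.30). Of the 26, 1 was free of overlap between cisplatin and control, where 6.06% of all genes were. It was Adgrv1, at 15.1 to 17.2 CPM after cisplatin and 17.5 to 21.3 CPM in control. Its log2 fold change was -0.28 (SE 0.17, adjusted p = 0.613 by edgeR). For Pdzd7, Gipc3 and Adgrv1, the log2 fold changes of combined against cisplatin and of cisplatin against control share the cisplatin libraries. For the combined treatment against control 0 of the 26 had an unadjusted p under 0.05, and 0 were free of overlap (1.07% and 2.41% of all genes). The smallest p belonged to Myo3a at 0.60 (SE 0.30), Clrn1 at 0.84 (SE 0.49), Grxcr2 at 0.54 (SE 0.37) and Myo7a, the motor that binds harmonin and SANS, at 0.32 (SE 0.24). Tmc2, the relative of Tmc1 that mouse cochlear hair cells use early in life, had 0 to 25 counts in a library.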

How the data were processed

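The labels' protocols describe column-purified RNA, enriched for mRNA with oligo(dT) or depleted of ribosomal RNA, and stranded dUTP libraries read from both ends. Cutadapt 1.9.1, HISAT2 2.2.1 and HTSeq 0.6.1 are listed, without their roles, in the submitters' processing notes. The deposited table gives a raw count and the authors' FPKM for each gene and library, per the file headers, with exonic length and position. FPKM was used for levels between genes alone. No source used here names the genome build. Symbols and positions of 21478 genes were identical in the RefSeq table of assembly mCavPor4.1, the 10 members included.

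Counts were filtered with filterByExpr by group, scaled with TMM and fitted in edgeR 4.0.16 (R 4.3.3, glmQLFit, robust) to all 11 libraries with groups as coefficients. P-values were adjusted by Benjamini-Hochberg over 15384 genes, and an adjusted p under 0.05 was called. Log2 CPM used a prior count of 2. Alternatives were DESeq2 1.42.0, no filter, other scalings, a replicate block, only the groups compared, and leaving out each library. The text names all members, per comparison the 4 other stereocilia genes with the smallest p, hair cell markers of at least 0.5 CPM and the 5 genes most like the members. Of the genes these rules name, 2 are not reported here. Members and lists were chosen with earlier results of these data known.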

Additional observations from a re-analysis of the deposited data

How the results depend on the processing

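The 0 calls among the members held in all 3 comparisons under DESeq2, no filter, both other scalings, the replicate block, only the groups compared and each library left out. The smallest edgeR adjusted p of a member over fits without 1 library was 0.425. Libraries with the same replicate number were not alike throughout. Their r of deviations from group means ran from -0.31 to 0.36 over 10 same-numbered pairs, with 3 over 0.1. The best match in another group, sought among its 3 or 4 libraries, had the own number in 9 of 20 cases. Whether replicate numbers mark a pairing was not tested. All-gene calls for the combined treatment against cisplatin, 3 in the fit described, were 101 by DESeq2, 0 with the replicate block, 0 with only the groups compared and 0 to 23 without 1 library. For cisplatin against control they were 33 by DESeq2, 1 with no filter and 0 to 7 without 1 library, and for the combined treatment against control 0 to 2 without 1 library. Under the block the log2 fold change of Lhfpl5 was -0.0043 for combined against cisplatin and 0.026 for cisplatin against control, and with upper-quartile factors that of Whrn was 0.0031 for combined against cisplatin. Without 1 library the member median ran from -0.10 to 0.53, from -0.21 to 0.13 and from -0.05 to 0.39 for combined against cisplatin, cisplatin against control and combined against control. Signs turned in some fits without 1 library. For combined against cisplatin the log2 fold change ran from -0.027 to 0.69 for Tmc1, -0.21 to 0.56 for Tmie, -0.22 to 0.34 for Lhfpl5, -0.10 to 0.37 for Cib2 and -0.28 to 0.20 for Whrn. For cisplatin against control it ran from -0.044 to 0.29 for Tmc1, -0.27 to 0.28 for Tmie, -0.23 to 0.18 for Lhfpl5, -0.13 to 0.17 for Cib2, -0.28 to 0.043 for Cdh23, -0.32 to 0.034 for Ush1c and -0.13 to 0.13 for Whrn. For combined against control it ran from -0.12 to 0.64 for Tmie, -0.25 to 0.32 for Lhfpl5, -0.053 to 0.41 for Cib2, -0.0021 to 0.19 for Pcdh15, -0.29 to 0.19 for Whrn and -0.0012 to 0.54 for Loxhd1. The cause of these differences was not tested. Low counts limit Pcdh15 (29 to 80) and Ush1g (0 to 10).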

Other observations

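Levels relative to Pou4f3 were compared between groups after the values had been seen, as log2 ratios for 9 members in 3 comparisons (27 exact permutation tests, two-sided, smallest possible p 0.0286 in each). An adjusted p under 0.05 would have needed at least 16 of the 27 tests at that smallest p, so the adjusted values (smallest 0.579) say little either way. Ush1c had log2 ratios of 1.30, 1.14, 1.28 and 0.97 in cisplatin replicates 1 to 4 and of 1.68, 1.37, 1.35 and 2.09 in control replicates 1 to 4. The 2 groups did not overlap (difference -0.45, exact permutation p = 0.0286, adjusted p = 0.579), and 0.455% of all tested genes did not overlap in this ratio. The spread of Pou4f3 (SD 0.69) enters the ratio of every gene, so this share does not measure how rare the Ush1c result is. In CPM the cisplatin and control libraries of Ush1c overlapped, where 6.06% of all genes did not. Without control replicate 4, where Pou4f3 was lowest, the difference in the log2 ratio was -0.30. In combined replicates 1 to 3 Ush1c had log2 ratios of 1.40, 2.24 and 1.06.

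Loxhd1 had log2 ratios to Pou4f3 of -0.76, -0.47 and -0.84 in the combined group, of -0.80, -1.17, -1.19 and -1.14 after cisplatin and of -0.80, -0.72, -0.71 and 0.00 in control. Its mean difference was -0.52 for cisplatin against control (exact permutation p = 0.0571, adjusted p = 0.579) and 0.38 for the combined treatment against cisplatin (exact permutation p = 0.0857, adjusted p = 0.579). Without control replicate 4 the difference for cisplatin against control was -0.33. All 9 members had a lower mean ratio after cisplatin than in control, as did 90.9% of all tested genes, since these values share the denominator Pou4f3 (log2 fold change 0.25, SE 0.44). Against control the combined group also had 9 of 9 lower (93.3% of all tested genes), and against cisplatin 2 of 9 (45.2%). Without control replicate 4 the count for cisplatin against control was 8 of 9, against 43.3% of all tested genes. In that setting Cdh23 was at 0.01, Tmc1 at -0.02 and Cib2 at -0.08. Without any other single library of the cisplatin and control groups the count was 9 of 9, against 79.4% to 95.5% of all tested genes. For the combined treatment against control it was 4 of 9 without control replicate 4 (32.4% of all tested genes) or without combined replicate 3 (49.3%). Without any other single library of those groups it was 8 or 9 of 9. The members share the denominator and most varied together, so these counts are not of independent genes.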
